A study of Mus musculus with 4 samples.

Results

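The regions described here are CTCF peak intervals that carry more than 1 summit. They were taken from the peaks that were reproducible between biological replicates (irreproducible discovery rate, IDR, at most 0.05) on chromosomes 1 to 19, and were selected on the called positions, as intervals listed on 2 or more lines with the same start and end and different summits. There were 2006 such regions among 86048 autosomal regions (2.33%), and 84042 regions had 1 summit. Of the 2006 regions, 1989 held 2 summits and 17 held 3. A further 14 such intervals on the X chromosome were left out by the rule. The share ran from 1.71% of regions on chromosome 16 to 2.99% on chromosome 19.

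The data are chromatin immunoprecipitation and sequencing (ChIP-seq) of CTCF in hippocampal tissue of adult male B6CASTF1/J mice aged 2 months. These animals are a first-generation cross of the C57BL/6J and CAST/EiJ strains, so each chromosome pair holds 1 copy of each. The 4 libraries form 2 biological replicates with 2 technical libraries each, and each replicate is a pool of 7 tissue samples. There is no treatment, mutant or second tissue, and the comparisons are between kinds of region. The peak lists give no gene expression against which the tissue label could be checked.

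CTCF is a zinc-finger protein that reads a long, directional DNA motif and, together with cohesin, holds the bases of chromatin loops. The direction of the motif matters for which pairs of sites form loops, with loop anchors mostly carrying motifs that point towards each other. Sites also occur in close clusters, for example at imprinted and developmental loci. A peak interval is the stretch called as bound, and a summit is the base at which a caller places the highest signal inside it. Where 2 sites lie close together, 1 interval can hold a summit for each.

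Sequences of 7 regions show the patterns that the counts below describe. Capitals mark the match to the 12-letter CTCF core recognition motif, with at most 1 mismatch, and a match on the minus strand is printed as its reverse complement. The first 6 have a match at both summits and are those with the strongest summit in each orientation that could be printed at this length. The last, the third strongest of all multi-summit regions, has a match at 1 summit only and is shown as the commonest kind. Each stretch is the plus strand of mm10, 5′ to 3′, from RefSeq's GRCm38.p6.
Same strand, chr7:142016745-142017012, nearest start site Mob2: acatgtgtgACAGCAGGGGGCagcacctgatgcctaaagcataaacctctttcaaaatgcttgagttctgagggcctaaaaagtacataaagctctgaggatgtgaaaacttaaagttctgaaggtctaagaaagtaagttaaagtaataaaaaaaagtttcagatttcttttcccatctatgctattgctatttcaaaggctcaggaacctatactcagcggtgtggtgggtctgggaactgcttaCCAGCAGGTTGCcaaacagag
Same strand, chr15:82271358-82271551, nearest start site Sept3: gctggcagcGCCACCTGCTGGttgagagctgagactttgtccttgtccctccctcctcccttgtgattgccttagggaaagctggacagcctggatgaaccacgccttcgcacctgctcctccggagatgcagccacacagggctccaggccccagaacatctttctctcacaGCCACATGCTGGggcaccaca
Convergent, chr1:133039580-133039798, nearest start site Pik3c2b: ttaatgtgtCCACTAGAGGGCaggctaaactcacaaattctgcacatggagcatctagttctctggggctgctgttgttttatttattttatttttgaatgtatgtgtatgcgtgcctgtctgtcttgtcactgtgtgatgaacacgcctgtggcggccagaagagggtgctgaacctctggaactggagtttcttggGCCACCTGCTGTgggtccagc
Convergent, chr8:126989547-126989803, nearest start site Rbm34: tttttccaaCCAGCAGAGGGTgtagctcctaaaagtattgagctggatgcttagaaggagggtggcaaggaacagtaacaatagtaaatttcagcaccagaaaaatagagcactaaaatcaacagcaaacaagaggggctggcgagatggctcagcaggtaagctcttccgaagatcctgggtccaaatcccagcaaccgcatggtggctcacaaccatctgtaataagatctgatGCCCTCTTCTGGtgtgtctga
Divergent, chr12:100841399-100841683, nearest start site Dglucy: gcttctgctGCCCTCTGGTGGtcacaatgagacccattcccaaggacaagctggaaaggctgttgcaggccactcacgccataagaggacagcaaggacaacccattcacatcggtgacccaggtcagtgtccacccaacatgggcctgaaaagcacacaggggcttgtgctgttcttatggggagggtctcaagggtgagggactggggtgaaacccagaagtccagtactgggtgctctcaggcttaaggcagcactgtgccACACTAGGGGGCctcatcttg
Divergent, chr3:87987135-87987318, nearest start site Bcan: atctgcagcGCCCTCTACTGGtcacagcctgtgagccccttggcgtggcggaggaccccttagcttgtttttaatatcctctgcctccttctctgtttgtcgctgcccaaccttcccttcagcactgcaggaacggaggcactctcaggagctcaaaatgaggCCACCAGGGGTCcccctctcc
Match at 1 summit, chr11:116586954-116587171, nearest start site Ube2o: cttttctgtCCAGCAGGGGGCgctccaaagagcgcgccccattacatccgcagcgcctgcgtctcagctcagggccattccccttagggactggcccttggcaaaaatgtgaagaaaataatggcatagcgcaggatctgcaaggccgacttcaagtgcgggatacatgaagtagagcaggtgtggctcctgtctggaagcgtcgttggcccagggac
Within the 6 pairs the stronger summit came first along the chromosome, and the motif starts lay 154 to 255 bp apart. Signal is the score that the authors' peak caller gave each summit, on a scale the sources do not state. In the same-strand pair nearest Mob2, 9314 bp from its start site, the stronger summit had a signal of 803 and the weaker one 81.4. The convergent pair nearest Rbm34 was the most even of the 6, with 334 at the stronger and 161 at the weaker summit. The divergent pair nearest Dglucy was the most uneven, with 821 at the stronger and 42.6 at the weaker summit.

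The spacing of the summits was narrow in range. Over the 1989 regions with 2 summits the median distance was 204 bp, the shortest was 199 bp and the longest 635 bp. In 1484 regions (74.6%) the summits lay at most 210 bp apart, and in 87 (4.37%) they lay more than 250 bp apart. No adjacent summits anywhere in the list lay closer than 199 bp. The regions were 245 to 1247 bp wide with a median of 509 bp, against 110 to 1017 bp with a median of 440 bp for single-summit regions. The width of exactly 440 bp was found in 3 multi-summit regions (0.150%) and in 39.3% of single-summit ones. These widths and distances follow in part from the rule and are descriptions.

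**Figure D1:**
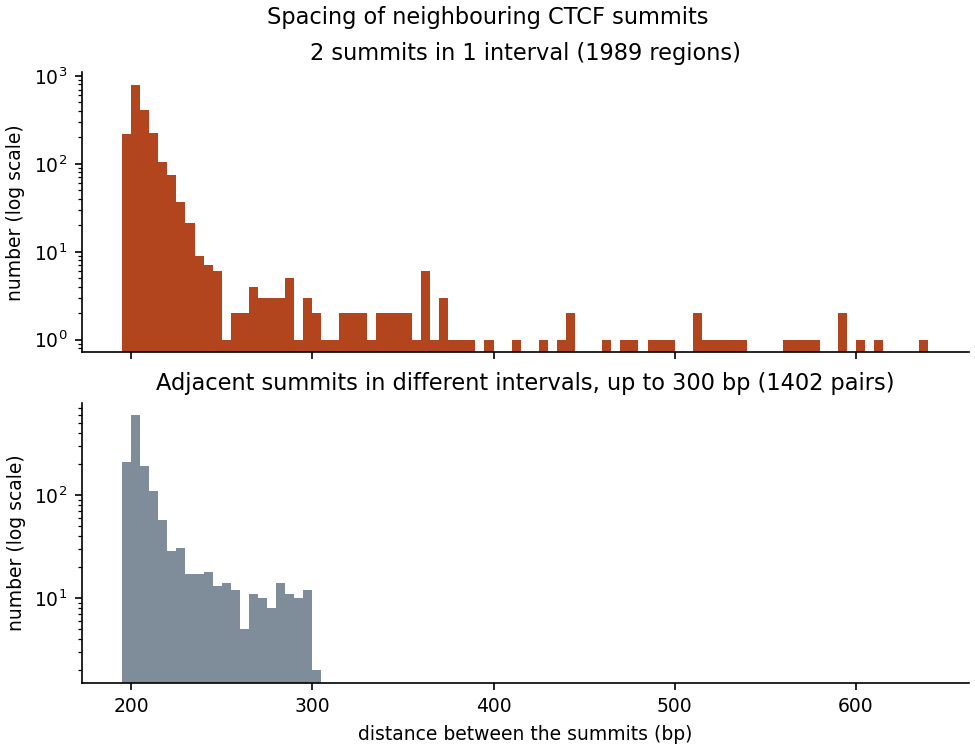
Number of summit pairs (log scale) by the distance between summits in bp, for 2-summit regions (top) and for adjacent summits of different intervals up to 300 bp apart (bottom). Both start at 199 bp and crowd just above it, with medians of 204 bp and 203 bp, and the tail of 2-summit regions runs to 635 bp.

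Most pairs were very uneven. The stronger summits were among the strongest of the list, with a median signal of 684 and a range of 82.3 to 966 over all 2006 regions. The weakest summit of each region had a median of 48.9 and a range of 12.9 to 590. Single-summit regions had a median of 163. In regions with 2 summits the stronger signal was a median of 13.5 times the weaker one, with a 5th percentile of 1.57 and a 95th of 44.4. The ratio was under 2 in 138 regions (6.94%) and 10 or more in 1237 (62.2%).

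The weaker summit lay almost always on the same side. It was at the higher coordinate in 1945 of 1989 regions (97.8%, 95% exact interval 97.0 to 98.4). The shares were close for both directions of the motif at the stronger summit. The weaker summit was at the higher coordinate in 777 of 792 regions with a minus-strand motif (98.1%) and in 531 of 544 with a plus-strand motif (97.6%). The 44 regions with the weaker summit at the lower coordinate had a median distance of 345 bp and a median ratio of 1.67, against 204 bp and 13.7 in the 1945 others. In 19 regions the weaker summit was placed past the last base of its own interval. No source used here names the peak caller, and whether this common side and the shortest distance of 199 bp come from how summits were called was not tested. Distances, ratios and the weaker summit are therefore those of summits as called.

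**Figure D2:**
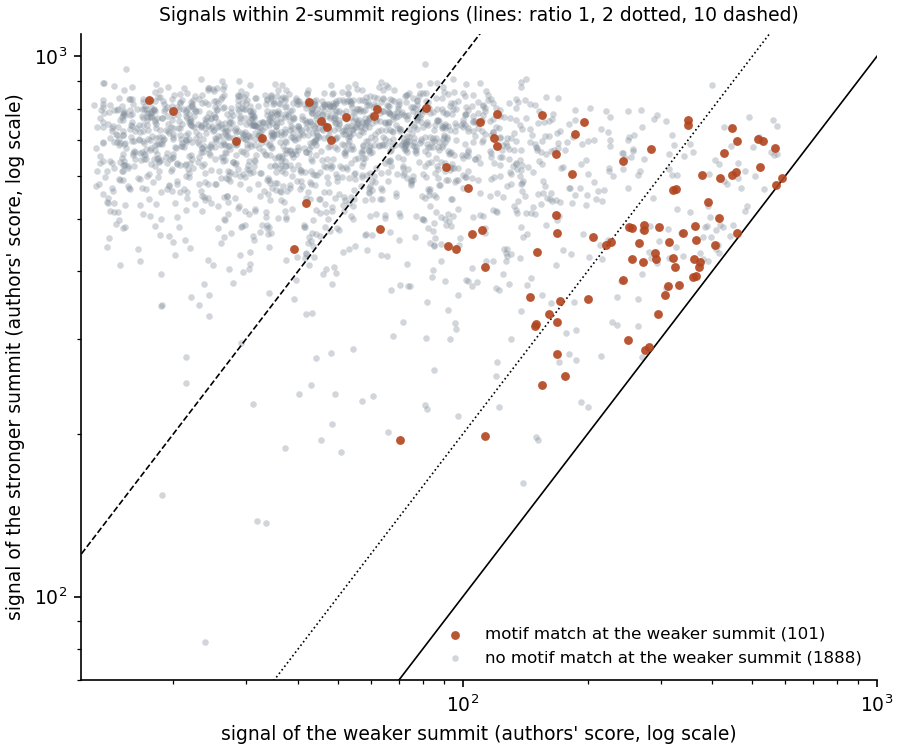
Signal of the stronger summit against that of the weaker one (authors' score, both axes log scale), 1 point per 2-summit region, with lines at ratios of 1, 2 and 10. Most points lie above the line of ratio 10, and the 101 regions with a motif match at the weaker summit gather towards the line of ratio 1.

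The IDR value belonged to the interval and not to the summit. In all 2006 regions every summit had the same IDR, also in the 750 regions whose value was below the highest one the list gives. The weakest summit had a signal under 40 in 820 regions (40.9%). Among ranked single-summit peaks under that signal, 836 of 88226 (0.948%) passed the IDR threshold. The q-value was above 0.05 at the weaker summit of 345 regions (17.3%) and at the stronger summit of none of 1989, which allows a share of up to 0.185% (95% exact interval).

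The strongest region, 205 bp between summits, lay 53376 bp from the start site of Hnrnpa3, which encodes an RNA-binding protein. Its summits had joint signals of 966 and 81.0, given here and below in the order of their coordinates. In replicate 1 the matched peaks had 481 and 21.3, and in replicate 2 both summits were matched to 1 peak of 492. The 3 next strongest were at the Disp3 promoter, in an intron nearest the start site of Ube2o, a ubiquitin-conjugating enzyme, and near Cep170b, with weaker summits of 15.4, 94.9 and 23.3. The fifth, in an intron 12153 bp from the start site of Mpg, a DNA repair glycosylase, had 906 and 142. Over these 5 regions the stronger summit had 906 to 966 and the weaker one 15.4 to 142.

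The 3 most widely spaced regions were nearest Ap5b1 (635 bp), Tmprss6 (614 bp) and Ano10 (602 bp). At Ap5b1, which encodes an adaptor protein subunit, the summits had 567 and 675 jointly, 306 and 338 in replicate 1, and 263 and 340 in replicate 2. The upper summit was the stronger one in both replicates. At Tmprss6, a membrane serine protease that acts in iron balance, the summits had 590 and 594 jointly, 309 and 295 in replicate 1, and 277 and 303 in replicate 2. There the order turned between the replicates. Nearest Ano10 the summits were less even, with 686 and 324 jointly, 324 and 179 in replicate 1, and 362 and 141 in replicate 2. Among the most even regions with Tmprss6, the pair nearest Igfbp7, 590 bp apart, had 569 and 578 jointly, 297 and 300 in replicate 1, and 273 and 276 in replicate 2. The third of the most even regions, nearest Spata7, had 459 and 471 at 296 bp.

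The most uneven regions were nearest Fgf20, a fibroblast growth factor, Nans, a sialic acid synthase, and Ebf1, a transcription factor, with ratios of 66.0, 65.7 and 62.7. Near Fgf20 the summits had 892 and 13.5 jointly, and in each replicate both were matched to 1 peak, of 436 in replicate 1 and 458 in replicate 2. Near Nans each summit had its own peak, with 427 and 17.5 in replicate 1 and 469 and 13.3 in replicate 2. The shortest distance, 199 bp, was shared by 216 regions. The 3 with the strongest summit among them were nearest Ube2o, Gm26661 and Chrna9, a nicotinic acetylcholine receptor subunit, with ratios of 9.58, 2.21 and 41.1.

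Support from single replicates differed between the summits. The joint list names, for each summit, the peak of each replicate it was matched to. A matched summit lay within 50 bp of the stronger summit in 99.5% of the 1989 regions in either replicate. For the weaker summit this held in 63.8% in replicate 1 and in 80.2% in replicate 2. Each summit had a matched peak of its own in both replicates in 1087 regions (54.7%), in 1 replicate in 708 (35.6%) and in neither in 194 (9.75%). Own peaks in both replicates were found for 123 of 138 regions with a ratio under 2 (89.1%) and for 429 of 1237 with a ratio of 10 or more (34.7%).

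Where both replicates gave own peaks, the order of the summits held. The stronger summit was also the stronger one in both replicates in 1083 of 1087 regions. The stronger summit was set by the joint signal, which draws on both replicates, so part of this agreement follows from the definition. The median ratio over these regions was 8.73 in replicate 1, 6.62 in replicate 2 and 8.10 in the joint signal. Per region the log2 ratios of the replicates differed by a median of 0.51 in either direction. Across these regions, which share their libraries, the log2 ratio correlated between replicates with r = 0.78 (Spearman 0.75), the log2 signal of the stronger summit with r = 0.96 (Spearman 0.96) and that of the weaker summit with r = 0.72 (Spearman 0.70). Regions are not replicates, and these are descriptions.

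The same rule gave 1778 multi-summit regions (2.44%) in the list of replicate 1, 3587 (4.88%) in that of replicate 2 and 1925 (2.87%) in that of the pooled reads. The weaker summit was at the higher coordinate in 99.3%, 99.5% and 97.9% of their 2-summit regions. Both summits of a 2-summit region recurred within 50 bp in 1 interval in 32.6% of cases in the replicate 1 list, 52.8% in the replicate 2 list and 95.9% in the pooled-read list. In the pooled-read list the stronger summit, the weaker one and both together were each found in 1907 regions. That list draws on the reads of both replicates, as the joint list does, so its share is not a separate check. In 438 regions (22%) both summits recurred in both single-replicate lists. A motif match at the weaker summit was found in 44 of these 438 and in 57 of the 1551 others (3.68%). A ratio under 2 was found in 16.2% of the 438 and in 4.32% of the others.

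The DNA under the summits was then searched for the CTCF motif within 50 bp. A match stood at the weaker summit in 101 of 1989 regions (5.08%) and at the stronger summit in 1336 (67.2%). In 39 regions only the weaker summit had a match, and in 1274 only the stronger one (two-sided exact McNemar test, log10 p = -320). The summits of a pair differ in signal, and this comparison was not matched for it. Among single-summit regions the share with a match rose with signal. It was 33.5% in the lowest of 10 signal deciles (signal 12.9 to 60.9) and 74.2% in the highest. A window at the same distance on the other side of the stronger summit had a match in 10 regions (0.503%), fewer than the weaker summit (exact McNemar test, p = 4.40e-20). That difference of 4.58 points was 2.32 points in the replicate 2 list alone and 0.804 points for motifs with 0 mismatches. Both summits had a match in 62 regions (3.12%) and neither in 614 (30.9%). No match says only that these letters were not found in the window.

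Motif matches at the weaker summit were concentrated in even and in widely spaced pairs. They stood in 55 of 138 regions with a ratio under 2 (39.9%, 95% exact interval 31.6 to 48.5), in 19.7% at ratios of 2 to 3, in 6.37% at 3 to 5 and in 2.33% at 5 to 10. At ratios of 20 to 40 the share was 0.591%, equal to that of the mirrored window in the same regions. By distance, the share was 2.90% up to 210 bp, 4.55% above 210 and up to 250 bp, 23.1% of 26 regions above 250 and up to 300 bp and 54.1% of 61 regions above 300 bp (95% exact interval 40.8 to 66.9). Ratio and distance went together, since the median ratio was 13.6 up to 210 bp and 1.38 above 300 bp.

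**Figure D3:**
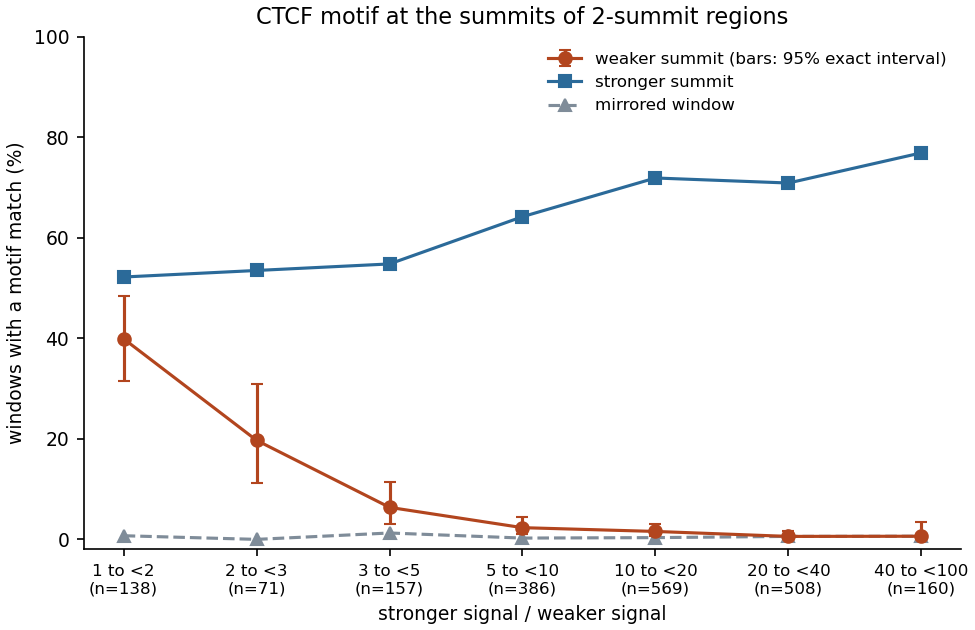
Percent of windows with a CTCF motif match by class of signal ratio in 2-summit regions, for the weaker summit (with 95% exact interval), the stronger summit and a window mirrored about the stronger summit. The weaker summit's share is 39.9% at ratios under 2 and 0.625% at 40 or more, where it equals that of the mirrored window, while the stronger summit's share is 52.2% and 76.9% in the same classes.

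Of the 62 pairs with a match at both summits, 39 had both motifs on the same strand (62.9%), 13 were convergent and 10 divergent. Among 840 pairs of neighbouring single-summit regions within 1 kb, 469 were on the same strand (55.8%). The difference was 7.07 points and did not pass the test (two-sided Fisher's exact test, p = 0.292), and with 62 pairs the interval of the first share runs from 49.7 to 74.8%. The summits of the neighbouring pairs lay farther apart, at a median of 780 bp against 230 bp. The motif starts in the 62 regions lay 154 to 614 bp apart, with a median of 280 bp.

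The strand of the motif at the stronger summit was uneven. It was the minus strand in 792 of 1336 2-summit regions (59.3%, 95% exact interval 56.6 to 61.9), against 49.7% of single-summit regions with a match (two-sided Fisher's exact test, p = 6.02e-12). At matched deciles of signal the shares were 59.3% and 49.4% (n = 1336 2-summit regions, Mantel-Haenszel test, p = 6.69e-12). Deciles without a 2-summit region with a match did not enter. The share in 2-summit regions was 57.3% in the replicate 1 list, 55.5% in the replicate 2 list and 59.1% in the pooled-read list. The difference from single-summit regions was 9.54 points in the joint list and 5.81 points in the replicate 2 list. The median signal of the weaker summit was 44.5 with a minus-strand motif and 50.2 with a plus-strand motif, at a median distance of 205 and 204 bp. Strand is read along the same coordinate as the side of the weaker summit. That side was the higher one in 1945 of 1989 2-summit regions (97.8%). Whether the uneven strand goes with this common side was not tested, so it is a trait of regions as called.

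The strongest summit of multi-summit regions had a motif match in 67.1% of cases, against 50.8% of single-summit regions (two-sided Fisher's exact test, p = 3.53e-48). This difference moved with signal. At matched deciles of the strongest signal the shares were 67.1% and 67.2% (n = 2006 multi-summit regions, Mantel-Haenszel test, p = 0.839). Deciles 1, 2 and 4, counted from the lowest signal, held no multi-summit region. Their single-summit regions did not enter this or the other matched comparisons. Against single-summit regions at least 464 bp wide, the share in multi-summit regions differed by -5.03 points (two-sided Fisher's exact test, p = 7.05e-06). That limit is the lower quartile of multi-summit widths. All multi-summit regions were kept, so widths were not matched. Multi-summit regions made up 8.76% of the decile with the highest signal, 8.61% of the ninth, 4.74% of the eighth and under 1% of each lower one. In the lower of these deciles the members stood apart. In the sixth decile 2 of 20 multi-summit regions had a motif match, against 49.9% of single-summit regions, and in the seventh 29 of 78 (37.2%), against 51.9%. The shares were 53.7% against 58.7% in the eighth, 70.7% against 67.0% in the ninth and 75.9% against 74.2% in the tenth. The matched comparison thus joins differences of opposite sign.

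Multi-summit regions lay at promoters more often than single-summit ones. A promoter was a position within 1 kb of a transcription start site. The strongest summit lay in one in 443 of 2006 multi-summit regions (22.1%, 95% exact interval 20.3 to 24.0) and in 13.6% of single-summit regions, a ratio of 1.63 (two-sided Fisher's exact test, adjusted p = 1.26e-23 over 7 classes). The difference of 8.51 points was 5.79 points in the replicate 1 list and 2.89 points in the replicate 2 list, in each of which it passed the exact test. By the same exact test, introns held 37.7% and 48.7% (adjusted p = 3.94e-22), and regions between genes 33.7% and 33.5% (adjusted p = 0.946). In both single-replicate lists the intergenic share was higher in multi-summit regions and passed the exact test, by 3.09 points in the replicate 1 list (adjusted p = 0.0124) and 3.31 points in the replicate 2 list (adjusted p = 8.85e-05). The exact test gave smaller differences for exons: coding exons held 2.44% and 1.77% (adjusted p = 0.0453), 3′ untranslated regions 2.69% and 1.66% (adjusted p = 0.00247) and other exons 1.30% and 0.744% (adjusted p = 0.0149). Those 3 exonic differences did not pass at matched signal deciles. The coding exon call was also lost by the exact test under the stricter IDR of 0.01, with an adjusted p of 0.0595. It was lost as well in the replicate 1 list (exact test, adjusted p = 0.0976), the replicate 2 list (adjusted p = 0.292) and the pooled-read list (adjusted p = 0.0631). Other exons lost the call in the replicate 1 list too (exact test, adjusted p = 0.157). Against wide single-summit regions the exact test gave no call for 3′ untranslated regions (adjusted p = 0.682) or other exons (adjusted p = 0.257). The 5′ untranslated class outside promoters held 1 multi-summit region.

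The promoter difference remained at matched signal deciles, with 22.1% and 12.4% (n = 2006 multi-summit regions, Mantel-Haenszel test, p = 2.88e-37). The intergenic share, for which the unmatched test gave no call, was then lower in multi-summit regions. It was 33.7% against 39.6% (n = 2006 multi-summit regions, Mantel-Haenszel test, p = 2.00e-07). The intron difference became smaller at matched deciles, with 37.7% against 43.1% (n = 2006 multi-summit regions, Mantel-Haenszel test, p = 1.05e-06). Against wide single-summit regions the intron share differed by -3.88 points (two-sided Fisher's exact test, adjusted p = 0.00309). The promoter share was highest among members of modest signal. In the sixth decile 12 of 20 multi-summit regions lay at a promoter, against 14.9% of single-summit ones. The share was 52.6% of 78 in the seventh decile, against 14.6%, and 16.2% of 754 in the tenth, against 12.2%. Within 2-summit regions, 44 of 138 with a ratio under 2 lay at a promoter (31.9%), against 21.3% of those with a ratio of 2 or more (two-sided Fisher's exact test, p = 0.00551). By class the promoter share was 39.4% at ratios of 2 to 3, 31.2% at 3 to 5, 31.1% at 5 to 10, 18.3% at 10 to 20 and 13.8% at 20 to 40. The median signal of the stronger summit rose over these classes, from 468 at ratios under 2 to 714 at 20 to 40. The comparison by ratio was not matched for signal. Regions were treated as independent, which neighbours may not be.

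**Figure D4:**
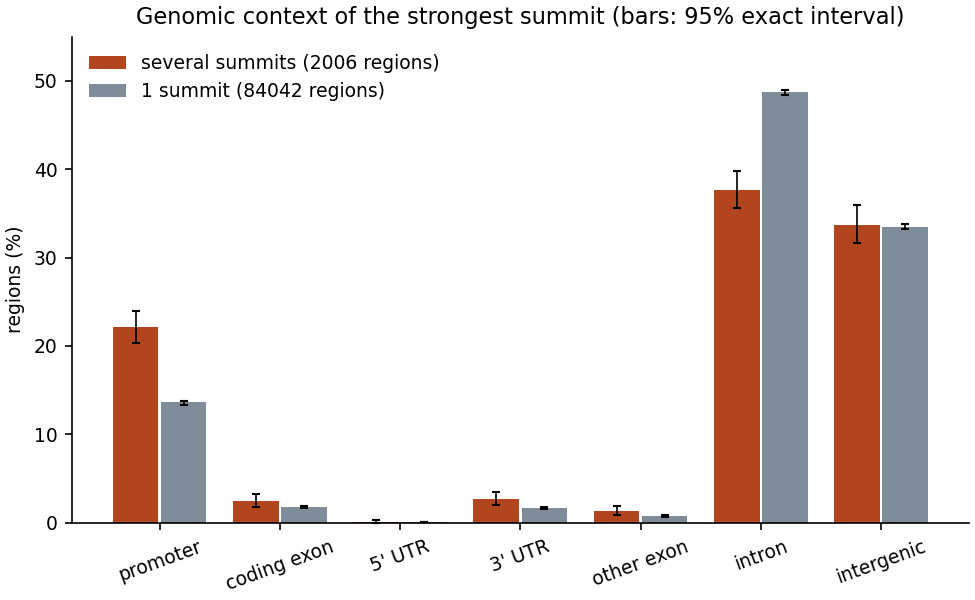
Percent of regions by the genomic class of their strongest summit, for 2006 regions with several summits and 84042 with 1 summit, with 95% exact intervals. Promoters hold 22.1% and 13.6%, introns 37.7% and 48.7%, without matching for signal.

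**Figure D5:**
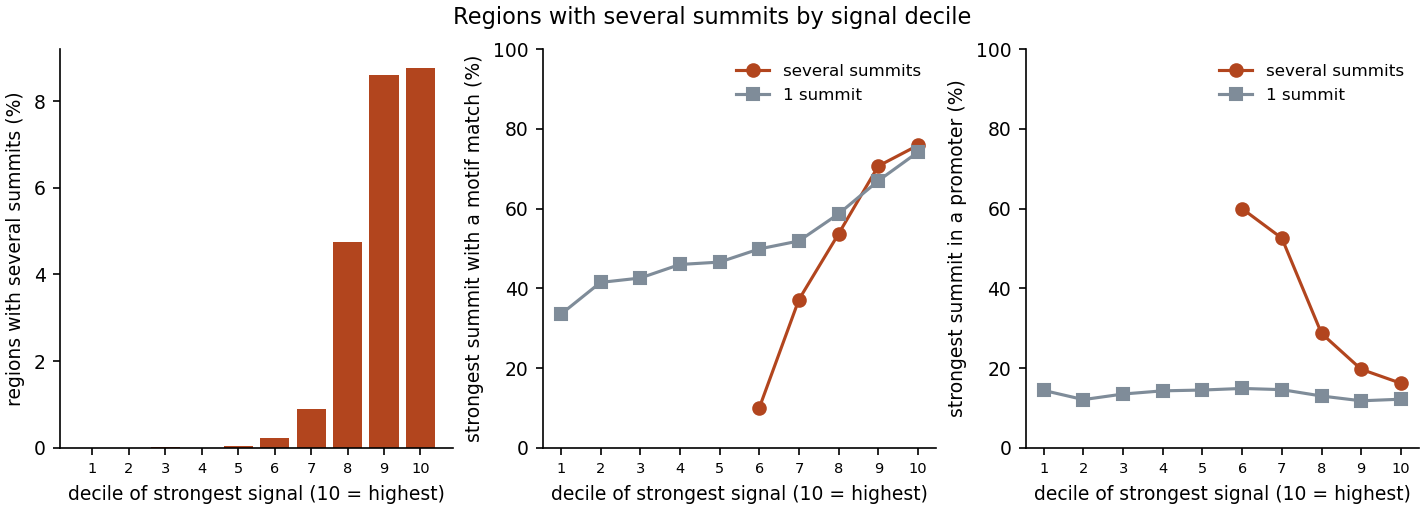
By decile of the strongest signal (10 is the highest): the percent of regions with several summits (left), and the percent of strongest summits with a motif match (middle) and in a promoter (right), for regions with several summits (deciles with at least 20 of them) and with 1 summit. Regions with several summits reach 8.76% in the tenth decile, and in the sixth 12 of 20 lie in a promoter.

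Base composition went the same way as the promoter share. Over 150 bp to either side of the interval's midpoint the median GC content was 50.2% in multi-summit regions and 45.8% in single-summit ones. The median ratio of observed to expected CpG there was 0.299 and 0.206. The strongest summit stood on a repeat-masked base in 6.18% of multi-summit regions and in 31.2% of single-summit ones (two-sided Fisher's exact test, p = 1.24e-165). At matched signal deciles the shares were 6.18% and 11% (n = 2006 multi-summit regions, Mantel-Haenszel test, p = 3.57e-12). Within regions the base was masked at 14.1% of weaker summits and at 6.13% of stronger ones (exact McNemar test, p = 1.65e-17).

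Of 20780 autosomal protein-coding genes, 406 (1.95%) had a summit of a multi-summit region within 1 kb of a start site. The strongest was at Disp3, a membrane protein of the Dispatched family, with 947 and 15.4 at its summits. In replicate 1 both were matched to 1 peak of 469, and in replicate 2 they had 478 and 31.7. At Psmd6, a subunit of the proteasome's regulatory particle, the summits had 889 and 55 jointly, 432 and 16 in replicate 1, and 460 and 33.9 in replicate 2. At Ick, a kinase of the primary cilium, they had 889 and 102 jointly, 424 and 29.6 in replicate 1, and 466 and 71.0 in replicate 2. In these promoters the summit at the lower coordinate was the stronger one wherever each had its own peak.

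At Zfp786, a zinc-finger gene, the summits had 884 and 30.7. Nfkbil1 and Atp6v1g2, a subunit of the proton pump that acidifies vesicles, share 1 region, where the weaker summit came first with 14.4 against 881. Prss36, a serine protease, had 878 and 52.8. Becn1, a core autophagy gene, had 862 and 25. Arhgef2, a microtubule-bound exchange factor, had 850 and 48.4. At Nrxn2, a presynaptic adhesion protein, the stronger summit of 850 held an exact motif match, and the weaker one of 92.1 had its best match at 2 mismatches.

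Gene lists chosen with earlier results known were counted beside the share of 1.95% over all protein-coding genes, with no test. None of 57 clustered protocadherins had a multi-summit promoter region, although 54 had some promoter summit, as had 8074 of all 20780 protein-coding genes (38.9%). Among 39 Hox genes, which set position along the body axis, it was Hoxc5, with 644 and 47.1. Of 27 activity-induced genes, Gadd45g, linked to stress and DNA demethylation, had 650 and 23.1, and Pim1, a survival kinase, had 599 and 75.7. Of 34 imprinted genes it was Peg13, a noncoding RNA, with 534 and 20.2, and Commd1, which acts in copper balance, with 680 and 20.2. At Gadd45g and Peg13 the weaker summit alone lay within 1 kb of the start site, and the stronger one was classed as intergenic and as other exon. None of 16 cohesin and architectural genes, 20 hippocampal neuron markers or 15 glial markers had one. With 0 to 2 genes per list these counts are too few to set apart from the background.

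The 17 regions with 3 summits spanned 402 to 623 bp between their outer summits, with a median of 491 bp. A motif match stood at none of the summits in 4 of them, at 1 in 7, at 2 in 5 and at all in 1. The strongest lay in an intron 21324 bp from the start site of Il2ra, an interleukin receptor chain, with 566, 180 and 34.6 along the chromosome. The replicate 1 peaks had 270, 66.8 and 21.5, and the replicate 2 peaks 298, 108 and 18.1. Nearest Spata6 and Ralgapa2 a strong summit stood at each end. The signals were 545, 14.5 and 540 nearest Spata6, and nearest Ralgapa2 385, 95.2 and 508. The region nearest Cd160 had 533, 116 and 63.5.

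Just outside the rule were 1402 pairs of adjacent summits that lay at most 300 bp apart in different intervals. They had a median distance of 203 bp and a median ratio of 3.60, against 204 bp and 13.5 in 2-summit regions. Their weaker summit was at the higher coordinate in 95.4% of pairs and had a motif match in 6.42%. Their stronger summit had a match in 41.4%, against 67.2% in 2-summit regions.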

How the data were processed

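CTCF ChIP-seq of 4 libraries was grouped into 2 biological replicates by the labels. The lists are on mm10, per the labels. The technical libraries of a replicate were merged by the authors, per the sample notes. No source used here names the aligner or the peak caller, and read depth is unknown, so intervals cover counting error over regions only. Of 8 lists, 5 were used: the thresholded lists between replicates, of each replicate and of pooled reads, and the ranked list between replicates. The deposited signal and IDR score are scores of unstated scale and of at most 1000, and the deposited q-values and IDR are −log10 values.

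Lines with 1 interval were joined into a region. Genes came from GENCODE M21 basic, and bases and repeat masking from GRCm38.p6, so CAST/EiJ alleles at motifs were not read. Each summit took 1 context class, promoters before exons, exons before introns, and intergenic last. Shares were compared by Fisher's exact test, with Benjamini-Hochberg adjustment over 7 classes, and summits of a region by an exact McNemar test. Shares at matched signal were compared by a Mantel-Haenszel test over those of 10 deciles of strongest signal that held multi-summit regions. Comparisons with the mirrored window, of repeats, of motif strand, of ratio and distance classes and the single-match sequence were added after seeing the data. The code was tested on simulated data. Members, gene lists and tests were chosen with earlier results of these data known. Named regions followed a rule: most summits, strongest, longest and shortest distance, most even and uneven ratio, the 10 genes with the strongest promoter regions, the listed genes with one, and the strongest motif pairs of each orientation. A region that the rule names is not reported here. Tests ran in scipy 1.17.1 and statsmodels 0.14.6, tables in pandas 2.3.3 and numpy 2.4.6 and figures in matplotlib 3.10.9, under Python 3.11.15.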

Additional observations from a re-analysis of the deposited data

How the results depend on the processing

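Of 136 recomputed values, 102 counted as kept. For shares this means the same direction and the same side of the threshold. The number of regions and the median distance and ratio have no test. For the number of regions it means within a set factor of the main value. For the median distance and ratio the margin is the standard deviation of the medians of the single-replicate lists, which are themselves among the values judged. Both of these medians were 203 bp for distance, so 203 against 204 bp counted as moved. The alternative of summits 100 bp or more apart could change nothing, since no adjacent summits lay closer than 199 bp. Its values all count as kept. The IDR of 0.01 kept 2005 of the 2006 multi-summit regions, so values within regions could hardly change under it. The pooled-read list held 1907 of the 1989 2-summit regions of the joint list. The number of kept values is therefore not a count of separate checks. The promoter difference stayed between 2.89 and 9.73 points and passed its test under each alternative, and the lower motif share at the weaker summit stayed between -71.8 and -26.3 points. The intergenic difference of 0.251 points changed sign at an IDR of 0.01 (-0.0847), in the pooled-read list (-0.460), with promoters of 5 kb (-0.178), at matched signal deciles (-5.85), without overlapping single-summit regions (-0.0290) and against wide ones of at least 464 bp (-4.67), and it ran from 3.09 to 3.31 points, past the test, without 1 replicate. The motif difference at the strongest summit changed sign at matched deciles (-0.0831) and against wide regions (-5.03, Fisher's exact test, p = 7.05e-06). The orientation difference changed sign with 0 mismatches (-26.7) and with pairs within 500 bp (-1.28). Coding exons changed sign with promoters of 5 kb (-4.85e-04). The 5′ untranslated class changed sign without replicate 2 (0.0479) and with promoters of 500 bp (0.0175) or 5 kb (0.0272), but not without replicate 1 (-0.0130). The cause was not tested. Without 1 replicate the number of regions ran from 1778 to 3587, the median distance was 203 bp and the median ratio ran from 13.4 to 14.4. The ratio was 8.73 from replicate 1 peaks and 6.62 from replicate 2 peaks, over the 1087 regions with own peaks. No paired analysis was possible because each biological replicate is 1 merged alignment and technical replicate numbers pair nothing in the peak lists.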
